A study of Mus musculus with 31 samples.

Results

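The 160 most highly expressed genes of mouse chromosome 7 were described in fibroblasts that had lost the long noncoding RNA Xist. A gene of chromosome 7 was a member when its exon counts summed to at least 4000 over the 6 RNA libraries, with 1 transcript, the one with the highest total, used for each symbol. The rule gave 160 of 2202 chromosome 7 symbols and of 24470 symbols in all. Its members were selected on their counts in these libraries, and the chromosome was chosen by the median fold change of its genes against WT in the same libraries, the lowest of the autosomes, so the lower level is given as a description and no test is drawn from it. The threshold parted near neighbours. Egln2 (3951 counts) and Ppp5c (3996.5) lay just below it, with log2 fold changes of -0.17 and -0.09 in line 1 and -0.27 and -0.31 in line 2. Rps3 (4000.5) and Rnh1 (4089) lay just above it, with -0.18 and 0.14 in line 1 and -0.24 and -0.36 in line 2.

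The series measured the consequences of losing Xist in mouse cells, and its RNA libraries came from female dermal fibroblasts, connective tissue cells of the skin grown in culture. All 3 groups were hybrids of CAST/Ei and 129/Sv/Jae. The wild-type group (WT) kept Xist on the inactive X, whereas the groups called line 1 and line 2 were 2 cell lines that lacked Xist on the inactive X (XaWT XiΔXist), where it was removed after X inactivation was complete. Each group had 2 libraries, given as library 1 and library 2, which the protocol calls biological replicates; each deleted group is a single cell line, so line and deletion cannot be told apart within a group, and both comparisons with WT share the same 2 WT libraries. RNA was total RNA depleted of ribosomal RNA.

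Xist coats the inactive X chromosome in cis and recruits silencing complexes to it, and the genes of autosomes are not its classical targets. Mouse chromosome 7 is gene-dense and carries housekeeping genes, the imprinted clusters around Ube3a and around Kcnq1ot1, and many genes of the cytoskeleton and of the secretory pathway that fibroblasts use to make matrix. Expression of a housekeeping gene is usually driven from a promoter rich in CG dinucleotides, often with GC boxes, the binding sites of Sp1-family factors.

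Counts summed to 3.81e+06 to 7.07e+06 per library over all symbols, and library 1 was the shallower in every group. Xist itself had 633 and 429 CPM (counts scaled to library size) in the WT libraries, 1.08 and 0.273 in those of line 1 and 0.969 and 0.282 in those of line 2, so the deletion was visible in all 4 libraries of the lines. All 10 fibroblast markers looked at passed the filter on low counts, and their summed level was 4568 to 6821 CPM with overlapping ranges in the 3 groups. None of 5 keratinocyte and none of 3 neuron markers passed the filter, and Krt1 was at 0. Leukocyte markers (2 of 5 passed) summed to 7.22 to 20.2 CPM with overlapping groups. Endothelial markers (1 of 4 passed) summed to 6.16 and 7.41 CPM in WT and to 0.262 to 2.26 in the 4 libraries of the lines. Muscle markers (2 of 4 passed) summed to 8.37 and 8.86 CPM in the WT libraries, 2.41 and 4.46 in those of line 1, and 9.76 and 11.4 in those of line 2. Melanocyte and Schwann markers (2 of 5 passed, Dct at 0) summed to 62.4 and 62.7 CPM in line 1, against 12.9 to 21.2 in the other 4 libraries, and the part of these markers in the results was not tested. In bulk RNA fewer cells of a type and less RNA per cell cannot be told apart.

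Promoters of the genes on which the results turn are shown first. Tenm4 and Prss23 are the members with the highest and the lowest fold change in line 1, and Ube3a and Prc1 lay nearest to the members' common level in both lines. Each stretch runs from 250 bases before to 50 after the transcription start (RefSeq, GRCm38.p6, the assembly of the mm10 build), 5′ to 3′ on the gene's strand, and capitals mark the GC box GGGCGG or its reverse complement CCGCCC.
Tenm4 (chr7:96170994-96171293, plus strand): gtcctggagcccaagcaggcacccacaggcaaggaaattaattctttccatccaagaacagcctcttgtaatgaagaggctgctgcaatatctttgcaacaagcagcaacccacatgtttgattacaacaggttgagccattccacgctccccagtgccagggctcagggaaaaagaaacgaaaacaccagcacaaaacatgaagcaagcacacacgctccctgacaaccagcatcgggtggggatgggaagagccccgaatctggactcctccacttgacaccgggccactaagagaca
Prss23 (chr7:89517537-89517836, minus strand): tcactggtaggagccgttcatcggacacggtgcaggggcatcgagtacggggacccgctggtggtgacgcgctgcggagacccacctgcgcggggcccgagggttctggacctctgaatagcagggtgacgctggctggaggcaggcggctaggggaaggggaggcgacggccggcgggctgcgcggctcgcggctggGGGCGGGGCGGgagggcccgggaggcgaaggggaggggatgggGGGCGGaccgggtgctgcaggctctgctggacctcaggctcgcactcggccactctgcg
Ube3a (chr7:59228500-59228799, plus strand): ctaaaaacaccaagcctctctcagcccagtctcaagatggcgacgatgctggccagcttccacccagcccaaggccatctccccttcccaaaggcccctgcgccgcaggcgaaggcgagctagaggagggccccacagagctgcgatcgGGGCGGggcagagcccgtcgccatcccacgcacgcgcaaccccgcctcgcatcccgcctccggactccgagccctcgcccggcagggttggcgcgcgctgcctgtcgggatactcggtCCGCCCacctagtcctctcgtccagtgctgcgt
Prc1 (chr7:80294201-80294500, plus strand): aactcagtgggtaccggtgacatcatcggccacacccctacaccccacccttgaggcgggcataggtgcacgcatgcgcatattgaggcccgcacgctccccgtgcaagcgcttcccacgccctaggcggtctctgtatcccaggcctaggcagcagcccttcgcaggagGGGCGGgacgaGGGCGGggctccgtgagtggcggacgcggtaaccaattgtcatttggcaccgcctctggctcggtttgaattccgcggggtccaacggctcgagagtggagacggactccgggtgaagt
The Prss23 stretch holds 31 CG dinucleotides and is 73.7% G or C, Ube3a 29 and 69.0%, and Prc1 27 and 65.0%. The Tenm4 stretch stands apart from these 3, with 6 CG dinucleotides, 52.0% G or C and no GC box. A promoter was matched by symbol for 133 of the 160 members, with none for Map6.

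The member promoters were CG-rich as a class. Their median was 24 CG dinucleotides and 62.7% G or C, against 7 and 52.7% over all 32851 promoters of the same length. The letters GGGCGG stood on either strand of 105 of the 133 (78.9%), against 35.7% of all promoters. TATAAA stood in 7 (5.26%, against 13.6%), CCAAT in 39.8% (against 37.4%) and CACGTG, which is its own reverse complement, in 9.77% (against 7.15%), each searched on both strands. None of these 4 motifs contains another. Members were chosen for high counts and the 32851 promoters were not, so these differences cannot be assigned to chromosome 7. These are counts of letters in a window and show no binding.

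The members were on the whole slightly lower in both deleted lines than in WT. The median log2 fold change of the 160 genes was -0.26 in line 1 (interquartile range -0.41 to -0.15), which is 0.835 of the WT level, and -0.28 in line 2 (-0.35 to -0.21), which is 0.821. A log2 fold change below 0 was found for 147 of 160 members in line 1 and 153 of 160 in line 2. Over all 12910 genes tested the medians were 0.01 and 0.01. Over the 2333 genes of the other autosomes that also reached 4000 counts they were -0.04 and -0.01, with 58.1% and 51.9% below 0. The median difference between the lines was -0.03 (line 2 minus line 1).

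The same shift could be read in each library. Relative to the geometric mean of the 2 WT libraries, the members' median was 0.05 and -0.05 on the log2 scale in WT libraries 1 and 2, -0.19 and -0.35 in line 1, and -0.22 and -0.33 in line 2. All 4 libraries of the lines lay below both WT libraries. The genes of other autosomes with at least 4000 counts had medians of 0.03 and -0.03 in the WT libraries, -0.00 and -0.09 in those of line 1, and 0.03 and -0.04 in those of line 2. Library 2 was lower than library 1 in every group, and library 1 was the shallower, so each library was also set against the WT library of its own number. The members' median was then -0.25 and -0.30 in line 1, with 140 and 151 of 160 genes lower, and -0.28 and -0.27 in line 2, with 153 and 152 lower. Members took 4.19% and 3.99% of all autosomal counts in WT (4.09% ± 0.144, SD, n = 2). They took 3.50% and 3.34% in line 1 (3.42% ± 0.112, n = 2) and 3.46% and 3.36% in line 2 (3.41% ± 0.0701, n = 2).

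**Figure D1:**
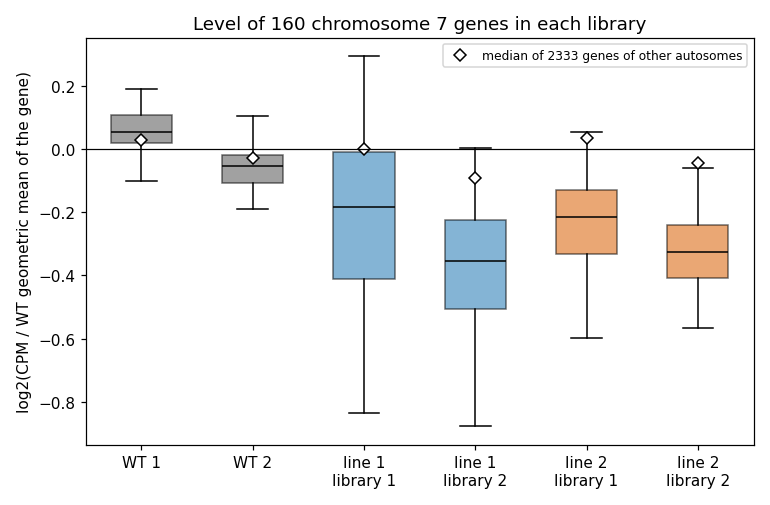
Level of the 160 chromosome 7 genes in each library, as log2 of CPM over the gene's geometric mean in WT; boxes span the quartiles, whiskers the 5th to 95th percentile, lines the medians, and diamonds the median of 2333 genes of other autosomes. The 4 boxes of the deleted lines have medians between -0.35 and -0.19, below both WT medians, whereas the diamonds stay between -0.09 and 0.03.

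Genes of chromosome 7 with fewer counts showed a like level. The 793 tested genes of the chromosome under 4000 counts had medians of -0.27 in line 1 and -0.31 in line 2, with 78.8% and 86.3% below 0. Among the 19 autosomes, each taken over its genes of at least 4000 counts, chromosome 7 had the lowest median in either line. The next were chromosome 8 (-0.23 in line 1 and -0.14 in line 2), chromosome 9 (-0.18 and -0.12) and chromosome 19 (-0.15 and -0.13). Chromosome 14 had the highest median in line 1 (0.29, against -0.07 in line 2), and chromosome 16 the highest in line 2 (0.16, against 0.05 in line 1). Chromosome 7 was picked for this place, which was not tested.

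**Figure D2:**
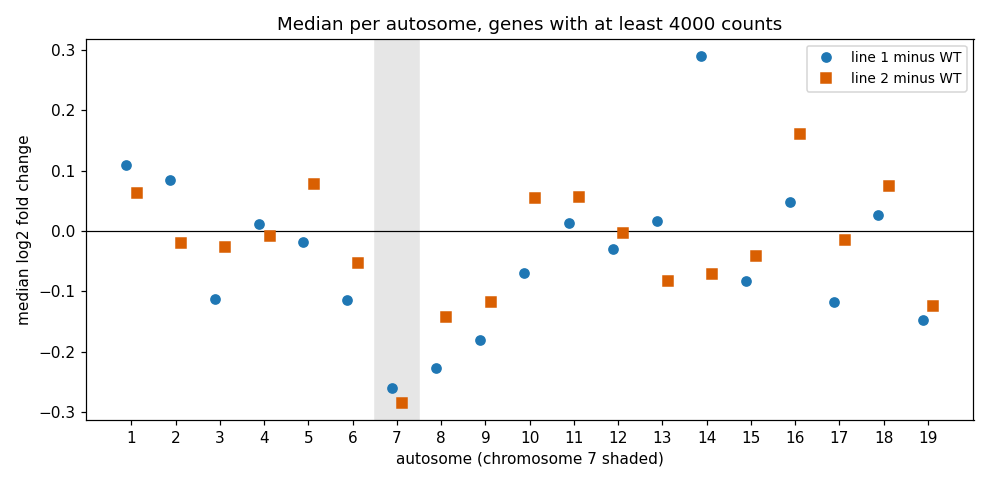
Median log2 fold change against WT of the genes with at least 4000 counts on each autosome, for line 1 (circles) and line 2 (squares). The shaded chromosome 7 has -0.26 and -0.28, the lowest circle and the lowest square.

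Every 20 Mb window of the chromosome had a median below 0 in both lines. Members started between 3.29 and 144.94 Mb, and their medians in the 8 windows of 20 Mb were -0.22 to -0.37 in line 1 and -0.23 to -0.34 in line 2. In windows of 10 Mb the highest median in line 2 was -0.09 (60 to 70 Mb, 5 genes, all 5 below 0). In line 1 the window from 60 to 80 Mb had the lowest median (-0.37, 11 genes) and the window nearest the centromere the highest (-0.22, 22 genes, all 22 below 0). In line 2 the most distal window was lowest (-0.34, 13 genes, all 13 below 0) and the window from 60 to 80 Mb highest (-0.23, 11 genes), so the windows did not keep 1 order in both lines. The less expressed genes of the chromosome had window medians of -0.23 to -0.42 in line 1 and -0.26 to -0.33 in line 2. No more than 2 members in a row were at or above 0 in line 1, and never 2 neighbours in line 2. The longest runs below 0 held 24 members in line 1 and 43 in line 2. The widest stretch without a member was 8.99 Mb long, between Ldha and Cyfip1.

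**Figure D3:**
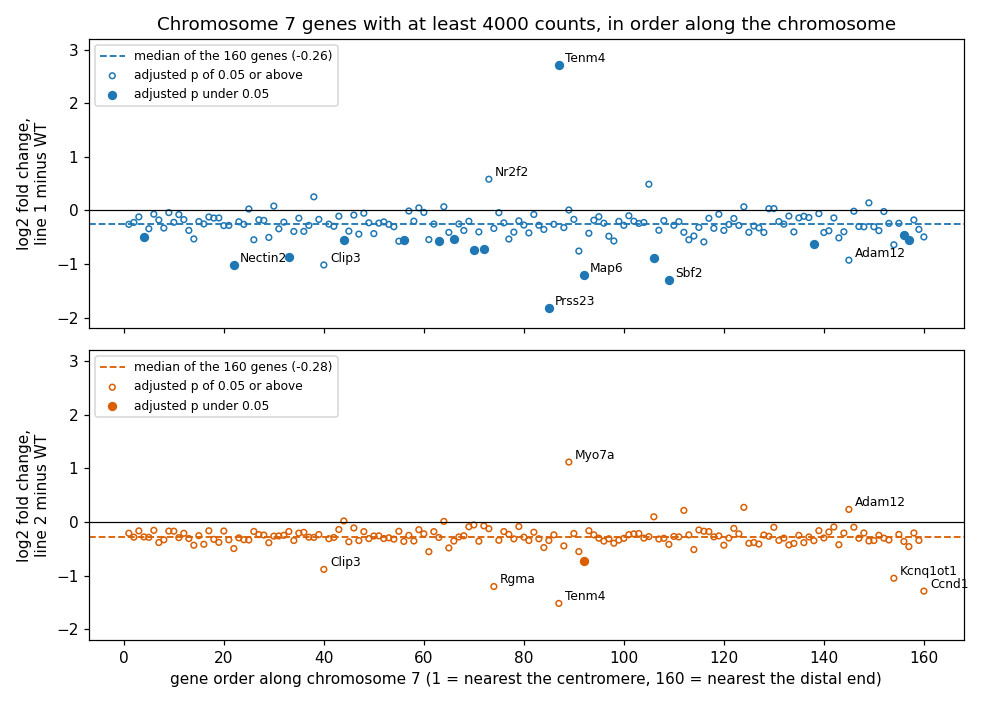
Log2 fold change of the 160 members in their order along chromosome 7, for line 1 (top) and line 2 (bottom); the dashed line is the median, and filled points passed an adjusted p under 0.05. Most points of either panel lie in a band below 0 from one end to the other, and a few genes, Tenm4 the farthest, stand off it.

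The common level did not vary much with other properties of the genes. With the members split into 3 parts of like size by total count, by mRNA length or by G and C content of the promoter, the medians of the parts were -0.21 to -0.30 in line 1 and -0.25 to -0.30 in line 2. From the lowest to the highest G and C content they ran -0.21, -0.25 and -0.29 in line 1 and -0.26, -0.28 and -0.30 in line 2. By mRNA length such an order held in line 1 alone, and by total count in neither line. These orders were not tested. Of the 160 members, 12 overlap a gene on the opposite strand whose total was over 10% of their own, and without them the medians were -0.27 and -0.28. No source used here says whether reads were counted by strand, so those of such pairs (Atf5 with Nup62, Ap2a1 with Fuz, Ilk with Rrp8, Ccnd1 with Oraov1) may be shared.

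A gene was called when its adjusted p was under 0.05 in edgeR's quasi-likelihood test with Benjamini-Hochberg adjustment over all 12910 genes tested, and all 160 members passed the filter on low counts. In line 1, 16 members (10% of them) fell and 1, Tenm4, rose, where 7.55% of all genes tested fell and 6.75% rose. In line 2, 1 member fell and none rose, where 1.85% of all genes fell and 1.73% rose. For the count of 0, 1 member was higher at an unadjusted p under 0.05 by edgeR (6.99% of all genes) and 1 was called by DESeq2, Myo7a in both. Tenm4 and Myo7a are the 2 of the 160 members that would not have reached 4000 counts at their WT level, so for them a higher level was favoured by the rule. At that unadjusted p, 52 members were lower in line 1 (13.9% of all genes) and 44 in line 2 (7.47% of all genes). The 143 members called in neither line still had medians of -0.25 and -0.28. The chosen contrast fixes these counts in part, and nothing is read from them about the chromosome.

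The ranges of the libraries separated more genes. Both libraries of line 1 lay below both WT libraries for 101 members (63.1%, against 25.6% of all genes tested), and both of line 2 for 125 (78.1%, against 23.9%). Both lay above for 4 members in each line (25.4% and 24.9% of all genes). All 4 libraries of the lines were below both WT libraries for 89 members (55.6%, against 12.3%) and above them for none (against 11.8%). The chosen contrast fixes these shares in part too, as it does the counts with the block given next. Nothing is read from them about the chromosome.

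Counts of calls moved with the replicate number and with single libraries. With replicate number as a block in the fit, 76 members fell in line 1 (16.1% of all genes tested did) and 3 rose (16.3%). In line 2, 43 fell with the block (6.27% of all genes) and 1 rose (5.87%). Members that fell in both lines numbered 1 without the block (1.12% of all genes) and 33 with it (3.95%), and none rose in both in either fit (0.736% and 2.66% of all genes). Without WT library 1 or 2, 4 members were called in line 1 (5.76% and 5.52% of all genes, against 14.3% with every library). Without line 1 library 1 there were 33 (17.6% of all genes) and without line 1 library 2 there were 25 (14.7%). Prss23, Map6, Nectin2 and Tenm4 were the 4 still called without a WT library. Leaving out either library of line 2 left 7 calls in line 1 (9.28% and 9.29% of all genes), these 4 with St5, Plekhg2 and Lrrk1. The single call in line 2 was lost without any 1 of the WT or line 2 libraries, and without line 1 library 1 or 2 there were 7 (5.82% and 5.99% of all genes, against 3.58% with every library).

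The 6 members with the most counts are described next. Mki67, the nuclear protein used as a marker of proliferating cells, had 1024 and 741 CPM in the WT libraries, 786 and 649 in those of line 1, and 824 and 606 in those of line 2. Its libraries overlapped between the groups, and line 1 stood at a log2 fold change of -0.30 (SE 0.24, adjusted p = 0.495) and line 2 at -0.31 (SE 0.24, adjusted p = 0.695). With the block it fell in line 1 (adjusted p = 0.0368). Arhgef17, a guanine nucleotide exchange factor, had 730.4 and 669.5 CPM in the WT libraries, 523 and 422 in those of line 1, and 549 and 514 in those of line 2. All 4 libraries of the lines were below WT, line 1 by a log2 fold change of -0.57 (SE 0.15, adjusted p = 0.0605) and line 2 by -0.40 (SE 0.15, adjusted p = 0.310), and with the block both fell (adjusted p = 0.00294 and 0.0271). Eif4g2, a translation initiation factor related to the eIF4G scaffold, had 650.3 and 599 CPM in the WT libraries, 529 and 501 in those of line 1, and 537 and 498 in those of line 2. Iqgap1, a scaffold at the cell cortex, had 656 and 588 CPM in the WT libraries, 526 and 502 in those of line 1, and 513 and 487 in those of line 2. All 4 libraries of the lines were below both WT libraries for each of these 2 genes, at -0.28 and -0.28 in line 1 and -0.27 and -0.31 in line 2. With the block both fell in line 1 (adjusted p = 0.0250 and 0.0291), and Iqgap1 in line 2 (0.0379). Axl, a receptor tyrosine kinase for Gas6, had 599 and 591 CPM in the WT libraries, 572 and 475 in those of line 1, and 505 and 498 in those of line 2, below WT in all 4 libraries of the lines and called in neither fit. Cic, a transcriptional repressor, had 623 and 473 CPM in the WT libraries, 679 and 439 in those of line 1, and 476 and 392 in those of line 2. It was at the WT level in line 1 (0.03) and at -0.34 in line 2 (SE 0.25, adjusted p = 0.681). Its libraries overlapped WT in both lines. With the block Cic was lower in line 2 than in line 1 (-0.34, adjusted p = 0.0453).

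Genes of RNA handling and translation followed the common level. The list held 10 members with medians of -0.20 in line 1 and -0.25 in line 2, and all 10 were below 0 in each line without a call. Eif3c, a subunit of the eIF3 complex that prepares ribosomes for initiation, had 446 and 378 CPM in the WT libraries, 355 and 266 in those of line 1, and 376 and 319 in those of line 2. Both lines were below WT without overlap, and with the block it fell in line 1 (log2 fold change -0.41, adjusted p = 0.00889). Hnrnpul1, an RNA-binding protein of the nucleus, had 403 and 361 CPM in the WT libraries, 389 and 289.9 in those of line 1, and 341 and 308 in those of line 2, with line 1 overlapping WT and line 2 below it. Rps3, a protein of the small ribosomal subunit and the only ribosomal protein among the members, had 148 and 130.1 CPM in the WT libraries, 139 and 107 in those of line 1, and 124 and 112 in those of line 2. Rps3 was at -0.18 and -0.24, and the 3 cytosolic ribosomal proteins of other autosomes with at least 4000 counts had medians of -0.10 and -0.09. Across other autosomes, initiation factors with at least 4000 counts (13 genes) had medians of -0.08 and -0.04, against -0.34 and -0.26 for the 2 on chromosome 7, Eif3c and Eif4g2. Chromosome 7 was chosen for its lower median, so a lower level than the same family elsewhere repeats that choice in part. This holds for the families below too, and none of these comparisons was tested.

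Proteasome and ubiquitin genes were also below WT. The list had 6 members, all 6 below 0 in each line, with medians of -0.27 and -0.28. In line 1, 1 was called lower (7.55% of all genes tested). Herc2, a giant ubiquitin ligase, had 398 and 369 CPM in the WT libraries, 248 and 286 in those of line 1, and 311 and 288 in those of line 2. It fell in line 1, -0.52 (SE 0.13, adjusted p = 0.0454), a call lost without either WT library, without line 1 library 1 and without either line 2 library, and it was -0.36 in line 2 (adjusted p = 0.268). Usp47, a deubiquitinase, had 261 and 242 CPM in the WT libraries, 196 and 239 in those of line 1, and 216 and 198 in those of line 2. Rnf40, a ligase for histone H2B, had 217 and 199 CPM in the WT libraries, 205 and 173 in those of line 1, and 178 and 171 in those of line 2. Usp47 lay below WT in all 4 libraries of the lines and Rnf40 in those of line 2, and neither was called. The proteasome subunits Psmc4 and Psmd8, named here after their values were seen, were at -0.34 and -0.28 in line 1 and -0.26 and -0.28 in line 2, against medians of -0.03 and 0.04 for the 6 proteasome genes of other autosomes.

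Enzymes of sugar metabolism lay nearest to WT. The list of glycolysis and respiratory chain genes had 5 members, Aldoa, Gys1, Idh2, Ldha and Gpi1, of which 2 were below 0 in line 1 and 4 in line 2, with medians of 0.04 and -0.10 and no call. None of the 5 is a gene of the respiratory chain, so the medians of this list do not cover it. The median of glycolysis and respiratory chain in line 2 turned to 0.0405 without WT library 1 and to 0.0446 without line 2 library 2. Aldoa, the aldolase of glycolysis, had 244 and 202 CPM in the WT libraries, 264 and 193 in those of line 1, and 232 and 184 in those of line 2. Gys1, a glycogen synthase, had 171 and 166 CPM in the WT libraries, 189 and 159 in those of line 1, and 159 and 145 in those of line 2. In both genes the line 1 libraries overlapped WT, and in line 2 only those of Gys1 lay below. Idh2, the mitochondrial isocitrate dehydrogenase, had 184 and 167 CPM in the WT libraries, 174 and 134 in those of line 1, and 179 and 152 in those of line 2, and all its groups overlapped. Ldha, a lactate dehydrogenase subunit named after its values were seen, had 163 and 137 CPM in the WT libraries, 163 and 152 in those of line 1, and 163 and 139 in those of line 2, with overlapping groups (0.07 in line 1 and 0.01 in line 2). In a list of glycolysis enzymes added after the values were seen, the 3 members (Aldoa, Gpi1 and Ldha) had medians of 0.04 and -0.10, and the 4 such genes of other autosomes 0.07 and 0.15. The difference of this list from the other members was not tested.

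Cytoskeletal genes had 9 members with medians of -0.24 and -0.30, 8 of them below 0 in each line, and no call. With the block 4 fell in line 1 (16.1% of all genes tested), and in line 2 3 fell (6.27%) and 1, Myo7a, rose (5.87%). Actn4, an actin crosslinker of stress fibres, had 571 and 536 CPM in the WT libraries, 465 and 381 in those of line 1, and 515 and 453 in those of line 2. All 4 libraries of the lines were below WT, and with the block it fell in line 1 (log2 fold change -0.39, adjusted p = 0.0103). Arhgap35, a GTPase-activating protein, had 524 and 495 CPM in the WT libraries, 402 and 386 in those of line 1, and 416 and 407 in those of line 2 and fell in both lines with the block (adjusted p = 0.00844 and 0.0352). Akap13, an anchor for protein kinase A, had 365 and 337 CPM in the WT libraries, 307 and 292 in those of line 1, and 318 and 302 in those of line 2 and fell with the block in line 1 (0.0470). The last 2 genes are not in the list and were named as the members with the most counts in their windows.

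Matrix and secreted genes had 6 members with medians of -0.25 and -0.25 and no call, and 5 and 6 of them were below 0. Serpinh1, the collagen chaperone HSP47 and the member with the highest WT level per length (201 CPM per kb), had 482 and 445 CPM in the WT libraries, 425 and 267 in those of line 1, and 447 and 381 in those of line 2. Line 1 library 2 was the lowest of the 6, line 2 overlapped WT, and with the block the gene fell in line 1 (adjusted p = 0.0417). Furin, a proprotein convertase of the Golgi, had 355 and 310.1 CPM in the WT libraries, 355 and 277 in those of line 1, and 296 and 287 in those of line 2. Ctsd, a lysosomal aspartic protease, had 310.2 and 238 CPM in the WT libraries, 344 and 199 in those of line 1, and 247 and 198 in those of line 2. In these 2 genes library 1 was above library 2 in every group, and line 1 overlapped WT. The endoplasmic reticulum, Golgi and transport list had 9 members, all 9 below 0 in each line, with medians of -0.28 and -0.29 and no call. Ap2a2 and Ap2a1 encode the alpha subunits of the clathrin adaptor AP-2, and Picalm a clathrin assembly protein. Ap2a2 had 422 and 402 CPM in the WT libraries, 315 and 320.3 in those of line 1, and 335 and 358 in those of line 2. Ap2a1 had 293 and 245 CPM in the WT libraries, 249.8 and 199.8 in those of line 1, and 240.3 and 198 in those of line 2. Picalm had 249 and 241 CPM in the WT libraries, 194 and 215 in those of line 1, and 217 and 198 in those of line 2. Ap2a2 and Picalm were below WT in all 4 libraries of the lines. With the block Ap2a2 fell in line 1 (adjusted p = 0.0112) and Ap2a1 in both lines (0.0327 and 0.0439). Slc1a5, a glutamine transporter named after its values were seen, was at -0.53 and -0.43, against medians of -0.09 and -0.03 for 28 solute carriers of other autosomes. This is 1 gene of a chromosome chosen for its lower median, and the difference was not tested.

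Receptors and signalling genes had 11 members with medians of -0.18 and -0.25, and 8 and 10 of them were below 0. In line 1, 2 of them fell (7.55% of all genes tested). Igf1r, the receptor of insulin-like growth factors, had 387 and 324 CPM in the WT libraries, 214 and 221 in those of line 1, and 338 and 337 in those of line 2. The line 1 level fell, -0.71 (SE 0.13, adjusted p = 0.0173), where the groups did not overlap, and line 2 overlapped WT (-0.07). Plekhg2, also a guanine nucleotide exchange factor, had 273 and 262 CPM in the WT libraries, 162 and 131 in those of line 1, and 249 and 224 in those of line 2. The line 1 level fell, -0.87 (SE 0.14, adjusted p = 0.0115), and the line 2 level was closer to WT (-0.18). Both calls were lost without either WT library, and that of Igf1r also without either line 2 library. Calm3, a calmodulin gene, had 345 and 303 CPM in the WT libraries, 347 and 249 in those of line 1, and 318 and 260.3 in those of line 2, with overlapping groups.

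Transcription factors and chromatin genes had 9 members, 8 below 0 in line 1 and 9 in line 2, with medians of -0.33 and -0.34. In line 1, 1 was called lower, Tead2 (7.55% of all genes tested). With the block 5 fell and 1 rose in line 1 (16.1% and 16.3% of all genes tested), and 7 fell in line 2 (6.27%). Tead1, a DNA-binding partner of the Hippo pathway coactivators, had 475 and 463 CPM in the WT libraries, 305 and 369 in those of line 1, and 319 and 338 in those of line 2. Both lines were below WT without overlap, line 1 stood at -0.48 (SE 0.14, adjusted p = 0.0718) and line 2 at -0.52 (SE 0.14, adjusted p = 0.126), and both passed with the block (adjusted p = 0.00952 and 0.0164). Tead2, its paralogue, named after its values were seen, had 209 and 193 CPM in the WT libraries, 147 and 129 in those of line 1, and 162 and 150.2 in those of line 2 and fell in line 1, -0.55 (SE 0.12, adjusted p = 0.0319). With the block Tead2 fell in line 2 too (-0.36, adjusted p = 0.0260). Trim28, the corepressor of KRAB zinc finger proteins, had 341 and 292 CPM in the WT libraries, 269 and 236 in those of line 1, and 262 and 240.4 in those of line 2 and fell with the block in both lines (0.0160 and 0.0325). Atf5, a stress-response factor, had 356 and 345 CPM in the WT libraries, 321 and 200.5 in those of line 1, and 302 and 283 in those of line 2, and line 1 library 2 was the lowest. The 2 chromatin genes named Kmt, Kdm or Chd on chromosome 7, Kmt2b and Chd2, had medians of -0.15 and -0.33, against -0.05 and -0.01 for 16 such genes of other autosomes. Zfp507, the only member named Zfp and named here after its values were seen, was at -0.09 and -0.11. The 26 Zfp genes of other autosomes had medians of -0.12 and 0.05, so in line 1 Zfp507 was not below them.

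Cell cycle and repair genes had 7 members, all 7 below 0 in each line, with medians of -0.26 and -0.28 and no call. Rrm1, the large subunit of ribonucleotide reductase, had 319 and 304 CPM in the WT libraries, 257 and 269 in those of line 1, and 275 and 261 in those of line 2, below WT in all 4 libraries of the lines. Lig1, the DNA ligase of replication, had 270.1 and 225 CPM in the WT libraries, 276 and 206 in those of line 1, and 243 and 196 in those of line 2, with overlapping groups. Prc1, which bundles microtubules at the spindle midzone and whose promoter is printed above, had 180.1 and 193 CPM in the WT libraries, 136 and 172 in those of line 1, and 155 and 152 in those of line 2, at -0.27 and -0.28.

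The list of imprinted genes had 5 members, all 5 below 0 in each line, with medians of -0.25 and -0.34. In line 1, 1 was called lower, Osbpl5 (7.55% of all genes tested). Kcnq1ot1, the paternally expressed antisense RNA of the Kcnq1 cluster, had 308 and 243 CPM in the WT libraries, 157 and 196 in those of line 1, and 154 and 113 in those of line 2. Its groups did not overlap; line 1 stood at -0.64 (SE 0.21, adjusted p = 0.0993) and line 2 at -1.05 (SE 0.21, adjusted p = 0.0544), and the block made both calls (adjusted p = 0.0382 and 0.0130). Its level is uncertain where it lies within Kcnq1 on the other strand. Cd81, a tetraspanin, had 198 and 167 CPM in the WT libraries, 181 and 129 in those of line 1, and 160.1 and 129 in those of line 2, with line 1 overlapping WT and line 2 below it. Ube3a, a ubiquitin ligase whose promoter is printed above, had 150.3 and 176 CPM in the WT libraries, 109 and 164 in those of line 1, and 126 and 143 in those of line 2, at -0.25 and -0.28. Osbpl5, an oxysterol-binding protein relative named after its values were seen, had 178 and 168 CPM in the WT libraries, 108 and 126 in those of line 1, and 121 and 130.4 in those of line 2 and fell in line 1, -0.56 (SE 0.12, adjusted p = 0.0314). With the block Osbpl5 fell in line 2 too (-0.46, adjusted p = 0.0271). The 2 parental alleles of these genes were not separated here, so whether each was imprinted in these fibroblasts was not tested.

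Few members left the common level. In line 1 148 of 160 (92.5%) lay within 0.5 of the median on the log2 scale, 4 lay farther above and 8 farther below. In line 2 152 (95%) lay within it, 3 above and 5 below. The genes of other autosomes with at least 4000 counts lay within 0.5 of their own median in 87.6% and 96.6% of cases. Within 0.25 of the median lay 75% of the members in line 1 and 90.6% in line 2, so the band was wider in line 1. The genes of other autosomes also spread more widely in line 1, with 66.2% and 84.8% within 0.25 of their own median. In all 17 members departed in at least 1 line and 3 in both, Clip3, Tenm4 and Adam12.

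Tenm4, a teneurin transmembrane protein of cell contacts (chr7:96171244-96911092, plus strand, mm10), departed the farthest and to opposite sides in the lines. It had 97.5 and 58.1 CPM in the WT libraries, 433 and 582 in those of line 1, and 31.5 and 23.0 in those of line 2. The 3 groups did not overlap, with line 1 the highest and line 2 the lowest. Of its 6907 counts 5867 came from line 1, 749 from WT and 293 from line 2, and at its WT level in every library it would have had 2525 in all. It was thus a member only through line 1, the group where it was high, so its difference there was favoured by the rule and is a description. Line 1 was 6.58 times WT, with a log2 fold change of 2.72 (SE 0.30, adjusted p = 0.00287), line 2 stood at -1.52 (SE 0.31, adjusted p = 0.0582), and line 2 was below line 1 by a log2 difference of -4.24 (SE 0.33, adjusted p = 0.000972). In line 2 the block (adjusted p = 0.0238) and DESeq2 (3.50e-05) each called it lower. Its WT level per length was 5.74 CPM per kb, the second lowest of the members after Kcnq1ot1.

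Prss23, a secreted serine protease (chr7:89507785-89517586, minus strand), was the lowest member in line 1. It had 238 and 286 CPM in the WT libraries, 77.6 and 71.0 in those of line 1, and 186 and 225 in those of line 2. Both line 1 libraries were far below the other 4, and both line 2 libraries were below both WT libraries. It fell to 0.283 of WT in line 1, a log2 fold change of -1.82 (SE 0.16, adjusted p = 0.00141), and was -0.35 in line 2 (adjusted p = 0.372). The lines differed by 1.47 (SE 0.16, adjusted p = 0.00284). Sbf2, a myotubularin-related protein of membrane traffic (chr7:110308013-110614920, minus strand), had 172 and 234 CPM in the WT libraries, 59.5 and 104 in those of line 1, and 130.1 and 174 in those of line 2. It fell in line 1, -1.30 (SE 0.30, adjusted p = 0.0369), and overlapped WT in line 2. That call was lost without either WT library and without either line 2 library. With the block Sbf2 was higher in line 2 than in line 1 (adjusted p = 0.00176).

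Map6, a protein that stabilises microtubules (chr7:99267447-99337137, plus strand), was the single member that fell in both lines. It had 221 and 209 CPM in the WT libraries, 93.8 and 93.6 in those of line 1, and 123 and 136 in those of line 2, with line 1 below line 2 and both below WT without overlap. Line 1 stood at a log2 fold change of -1.20 (SE 0.11, adjusted p = 0.00174) and line 2 at -0.73 (SE 0.11, adjusted p = 0.0265), and the lines differed by 0.47 (SE 0.11, adjusted p = 0.0421). The call in line 2 was lost when any WT or line 2 library was left out (adjusted p = 0.162 to 0.244). Nectin2, a cell adhesion molecule of the immunoglobulin family (chr7:19716644-19749573, minus strand), showed the same order, with 179 and 172 CPM in the WT libraries, 93.3 and 80.1 in those of line 1, and 120.4 and 127 in those of line 2. It fell in line 1, -1.02 (SE 0.12, adjusted p = 0.00382), and was -0.50 (SE 0.12, adjusted p = 0.0948) in line 2, where the block called it (adjusted p = 0.0198). Line 2 was above line 1 by 0.52 (SE 0.12, adjusted p = 0.0404).

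Other members fell in line 1 and were near WT in line 2. St5, a regulator of Rab GTPases, had 187 and 185 CPM in the WT libraries, 87.0 and 113 in those of line 1, and 199 and 199 in those of line 2. This gene fell in line 1 (-0.89, adjusted p = 0.0116), stood at 0.10 in line 2, and differed between the lines by 0.99 (SE 0.15, adjusted p = 0.00858). Lrrk1, a leucine-rich repeat kinase, had 225 and 208 CPM in the WT libraries, 134 and 125 in those of line 1, and 212 and 205 in those of line 2. This gene fell in line 1 (-0.74, adjusted p = 0.00797), stood at -0.06 in line 2, and differed between the lines by 0.69 (SE 0.11, adjusted p = 0.0109). For St5 and Lrrk1 the call in line 1 was lost without either WT library. Igf1r and Plekhg2 also differed between the lines, by 0.64 (SE 0.13, adjusted p = 0.0264) and 0.69 (SE 0.14, adjusted p = 0.0270), as did 4931406P16Rik, an uncharacterised gene with 171 and 163 CPM in the WT libraries, 118 and 111 in those of line 1, and 175 and 164 in those of line 2. The last fell in line 1, -0.55 (SE 0.11, adjusted p = 0.0222), was 0.02 in line 2, and differed by 0.57 (SE 0.11, adjusted p = 0.0211). Its call in line 1 was lost without either WT or either line 2 library.

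The remaining calls in line 1, named here after their values were seen, were Tgfb1i1 (-0.63), Nomo1 (-0.57), Ppp1r12c (-0.49) and Cars (-0.46). These 4 genes were at -0.35, -0.29, -0.28 and -0.36 in line 2, and in each of them all 4 libraries of the lines were below both WT libraries. With the block Tgfb1i1 and Cars fell in line 2 as well (adjusted p = 0.0416 and 0.0275).

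Between the lines 8 members were higher and 2 lower in line 2 than in line 1, where 6.87% of all genes tested were higher and 5.76% lower, so the share of members (5% and 1.25%) was not above that of all genes. With the block the counts were 14 (13.4% of all genes) and 10 (13.8%). The 8 were Prss23, Map6, Nectin2, St5, Plekhg2, Lrrk1, Igf1r and 4931406P16Rik, and the 2 were Tenm4 and Nr2f2. Leaving out either library of line 2 left 2 of the 10 calls, Tenm4 and Prss23 (5.24% and 4.61% of all genes, against 12.6% with every library). Leaving out WT library 1 or 2 left 5 or 4 (8.81% and 8.996%), and without line 1 library 2 there were 16 (14.1%). Nr2f2, the nuclear receptor COUP-TFII, had 189.7 and 209.9 CPM in the WT libraries, 337 and 263 in those of line 1, and 175 and 191 in those of line 2. Both line 1 libraries were above the other 4, line 1 stood at 0.58 (SE 0.15, adjusted p = 0.0566), where the block (adjusted p = 0.0187) and DESeq2 (0.0287) called it higher, and the lines differed by -0.71 (SE 0.15, adjusted p = 0.0332). Rnh1, the inhibitor of ribonucleases, had 140.2 and 127 CPM in the WT libraries, 164 and 132 in those of line 1, and 106 and 103 in those of line 2, and its difference between the lines, -0.50 (SE 0.14, adjusted p = 0.0725), passed with the block (0.00988).

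The other departing genes were named after their values were seen. In line 2, Ccnd1, which encodes cyclin D1 of the G1 phase, had 72.9 and 136 CPM against 215 and 299 in WT and 152 and 212 in line 1. Rgma, a membrane-anchored guidance molecule, had 144 and 121 CPM in line 2 against 329.7 and 279.6 in WT and 305 and 179.6 in line 1. Both were below WT in line 2 without overlap, at -1.29 (SE 0.33, adjusted p = 0.116) and -1.20 (SE 0.26, adjusted p = 0.0697), and both were called with the block (adjusted p = 0.00162 and 0.00372) and by DESeq2 (0.00172 and 0.000433). Myo7a, an unconventional myosin, had 250.0 and 226 CPM in line 2, above 141 and 79.5 in WT and 145 and 77.5 in line 1. At 1.12 (SE 0.36, adjusted p = 0.211) it was the highest member in line 2 and was called with the block (0.00977) and by DESeq2 (0.0276). At its WT level it would have had 3582 counts, so it too was a member only through the group where it was high, and these values are a description. Clip3, a microtubule-binding protein, had 242 and 187 CPM in the WT libraries, 133 and 80.4 in those of line 1, and 133 and 99.0 in those of line 2. Every library of the lines was below WT, line 1 at -1.02 (SE 0.28, adjusted p = 0.0632) and line 2 at -0.89 (SE 0.28, adjusted p = 0.196), and the block called it in both (0.000663 and 0.00388). Adam12, a metalloprotease, had 161 and 218 CPM in the WT libraries, 41.1 and 155 in those of line 1, and 198 and 247 in those of line 2, and line 1 library 1 was far below library 2, so that its -0.93 in line 1 had an SE of 0.54. Tpp1, a lysosomal peptidase, had 147 and 118 CPM in the WT libraries, 213 and 159 in those of line 1, and 120.2 and 98.8 in those of line 2, above WT in line 1 (0.49 (SE 0.20, adjusted p = 0.169); 0.00505 with the block). Sipa1l3 in line 1 (0.25) and Il4ra in line 2 (0.27) lay above the median and were not called. Between the lines the block called Ccnd1 (adjusted p = 0.00325), Rgma (0.00580), Tpp1 (0.000905) and Sipa1l3 (0.0183) lower in line 2. It called Adam12 (0.0325) higher in line 2.

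**Figure D4:**
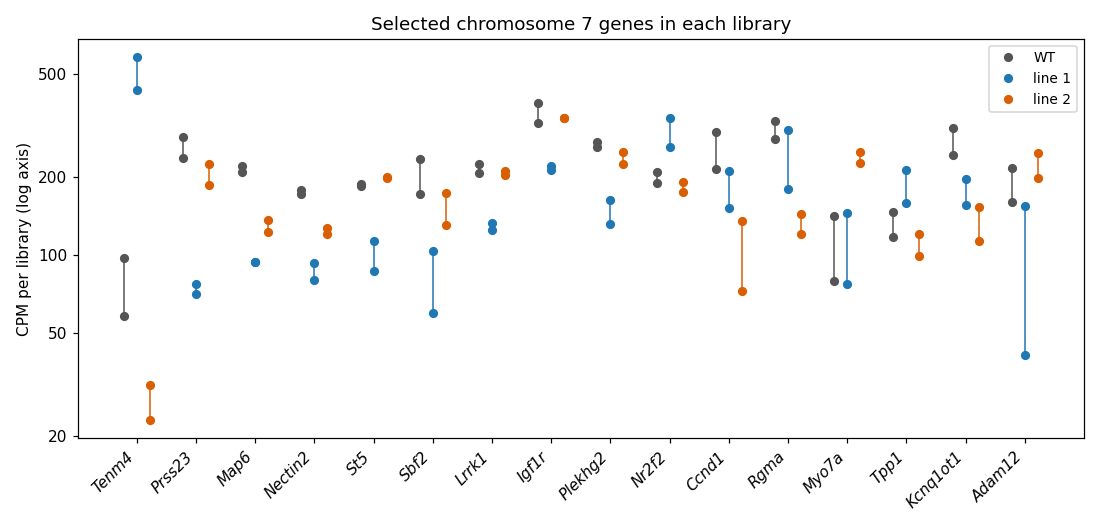
CPM in each library (log axis) of 16 members, for WT (grey), line 1 (blue) and line 2 (orange), with a line joining the 2 libraries of a group. Tenm4 stands highest in line 1 and lowest in line 2, Prss23 and Sbf2 are lowest in line 1, and Myo7a is highest in line 2; levels are not per length, so genes should not be ranked by height.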

How the data were processed

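The members, gene lists and tests were chosen with earlier results of these data known. Exon values of the 6 RNA libraries (n = 2 in each of 3 groups) are expected counts as deposited, made by the authors with HOMER without normalization, per the file headers, on mm10 and in steps of 0.5. The submitters' processing notes also name Trim Galore 0.4.1, TopHat2, SAMtools and bedtools 2.25.0; no source used here says whether reads were counted by strand. Counts had been assumed in the design, so these expected counts were rounded to whole numbers, with 0.5 rounded up. Of 28972 transcripts, 4502 were dropped so that each of 24470 symbols kept the transcript with the highest total. Counts used were 4.06e+06 and 6.21e+06 for WT libraries 1 and 2, 3.81e+06 and 7.07e+06 for line 1, and 4.19e+06 and 6.97e+06 for line 2.

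After filterByExpr, 12910 genes entered 1 edgeR 4.0.16 quasi-likelihood fit (R 4.3.3) of all 6 libraries with TMM scaling and group means as the only terms (3 residual degrees of freedom); the biological coefficient of variation was 0.17. A call is a Benjamini-Hochberg adjusted p under 0.05. CPM are TMM-scaled, except the sums of cell type markers, which are scaled to the counts used in each library without TMM. The difference of replicate 2 from 1, taken gene by gene, correlated between any pair of groups (Pearson 0.563, 0.628 and 0.555). A fit with the replicate block is therefore quoted for many, but not all, of the calls and counts that it changes. The replicate number also stands for depth, and the labels do not say what it marks. P-values rest on the spread between the 2 libraries of a group, taken over all 3 groups in 1 fit. In that fit edgeR moderated the spread of each gene toward a trend over the genes tested. Each SE given is the absolute log2 fold change divided by the square root of the test's F statistic. The intervals of single counts are not the limit, since the lowest count of any member was 130.

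Named genes were the up to 8 members lowest and highest among calls without overlap in each line, calls shared by both lines (up to 6 each way), the 6 with the highest totals, up to 3 by total per role list, the top total per 20 Mb window, up to 4 each way between the lines, and 2 on either side of the threshold; others are said to be named after their values were seen. Alternatives were DESeq2 1.42.0, RLE scaling, TMM without chromosomes 7 and X, no filter, the 2 groups alone, the block, each library left out, totals of 2000 and 8000, windows of 10 Mb and another denominator for shares. The code was tested on simulated data. ATAC-seq and ChIP-seq data and allele counts, which cover the X, were not used here.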

Additional observations from a re-analysis of the deposited data

Results flagged for a closer look

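For 10 members the fold changes of the 2 lines against WT differed by a direct test of line 2 against line 1 (edgeR's quasi-likelihood test, Benjamini-Hochberg adjusted over 12910 genes, n = 2 libraries in each line). Both libraries of a line lay on 1 side of both libraries of the other in each. Tenm4 (log2 difference -4.24, adjusted p = 0.000972) and Nr2f2 (-0.71, adjusted p = 0.0332) were lower in line 2. Tenm4 reached 4000 counts only through line 1, where it was high, so its difference repeats the choice of members and is a description. Prss23 (1.47, adjusted p = 0.00284), St5 (0.99, adjusted p = 0.00858), Plekhg2 (0.69, adjusted p = 0.027), Lrrk1 (0.69, adjusted p = 0.0109), Igf1r (0.64, adjusted p = 0.0264), 4931406P16Rik (0.57, adjusted p = 0.0211), Nectin2 (0.52, adjusted p = 0.0404) and Map6 (0.47, adjusted p = 0.0421) were higher in line 2. Of all genes tested, 6.87% were likewise higher and 5.76% lower in line 2.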

How the results depend on the processing

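The median of the members stayed below 0 in both lines under all 14 alternatives, between -0.36 and -0.19 in line 1 and between -0.33 and -0.22 in line 2, and the cause of this range was not tested. Counts of members called moved more. Shares in parentheses are those of all genes tested under the same setting, and they moved too. In line 1 17 members were called (14.3%), against 29 with no filter on low counts (13.6%), 7 with the 2 groups alone (9.93%), 79 with the replicate block (32.4%), 41 and 2 with totals of at least 2000 and 8000 (other members by construction, in the same fit as the 17), and 4 to 33 with 1 library left out (5.52% to 17.6%). In line 2 1 was called (3.58%), against 7 with DESeq2 (4.50%), 8 with no filter (4.84%), 8 with the 2 groups alone (6.25%), 44 with the block (12.1%), 6 and 0 with totals of at least 2000 and 8000, and 0 to 7 with 1 library left out (0.177% to 5.99%). Between the lines 10 were called (12.6%), against 18 with no filter (12.05%), 5 with the 2 groups alone (9.37%), 24 with the block (27.2%), 21 and 1 with the other totals, and 2 to 16 with 1 library left out (4.61% to 14.8%). In both lines 1 was called (1.86%), against 3 with DESeq2 (2.22%), 4 with no filter (2.40%), 2 with the 2 groups alone (2.33%), 33 with the block (6.62%), 4 and 0 with the other totals, and 0 to 4 with 1 library left out (0.0921% to 2.77%). Where a group was left with 1 library, it was assumed to vary like the others. The cause of these changes was not tested. Of 1080 results of named genes under the alternatives, none changed direction at a call, 995 kept their side of the threshold, 31 lost it and 54 gained it; of 90 results under the block 66 kept their side and 24 gained it. The median of glycolysis and respiratory chain in line 2 (5 genes, none of the respiratory chain), -0.10, changed sign when 1 library was left out, to 0.0405 without WT replicate 1 and 0.0446 without line 2 replicate 2, in a range of -0.213 to 0.0446. The highest window median in line 2 was -0.0905 in windows of 10 Mb (60 to 70 Mb, 5 genes). The members' share of autosomal counts was 0.836 of WT in line 1 and 0.834 in line 2, and 0.868 and 0.842 over genes of at least 4000 counts.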
